A study of Mus musculus with 6 samples.

Results

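The 35 genes described here are endothelial cell genes, chosen by name as markers and regulators of the cells that line blood vessels, out of 54532 genes in the deposited table of RNA counts from mouse muscle. Each of the 35 names matched 1 row of that table. They comprise 12 adhesion, junction and surface genes, 5 SOX and ETS transcription factors, 8 receptors, 3 Notch pathway genes, 4 genes of vascular tone and capillary function, and 3 angiogenic ligands. All 35 passed the filter on low counts, so each was tested.

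The series compared muscle of control mice (Mck-Cre-; Igf2f/f) with muscle of Igf2 cKO mice (Mck-Cre+; Igf2f/f), with 3 libraries a group, on a C57BL/6 background. Both groups carry loxP sites around exon 2 of Igf2, which encodes an insulin-like growth factor, and were littermates. The Igf2 cKO animals alone carry Cre recombinase, driven by the promoter of muscle creatine kinase (Mck), a gene of striated fibres. Loss of Igf2 and presence of Cre therefore cannot be told apart in this design, and the labels give neither the muscle, the age nor the sex.

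Endothelial cells are a minority of the cells in skeletal muscle, where a dense capillary bed supplies the fibres. Vascular endothelial growth factor A (VEGFA) made by muscle fibres acts on the receptors KDR and FLT1 of nearby capillaries, and KDR signalling induces the Notch ligand DLL4, which restrains the sprouting of neighbouring cells. The related SOXF factors SOX7, SOX17 and SOX18 act with ETS factors such as ERG and FLI1 on endothelial enhancers, and SOX17 is known above all from arteries. Angiopoietin 1 from perivascular and other cells acts on the receptor TEK (TIE2) to keep vessels quiescent, and the receptor S1PR1 for sphingosine 1-phosphate stabilises junctions. In whole muscle, fewer endothelial cells and less RNA per cell cannot be told apart.

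The upstream sequences of 3 endothelial genes whose CPM (counts scaled to a common library size) was lower in every Igf2 cKO library than in any control are shown, because ETS factors, 2 of which are among the 35 genes, bind a GGAA core. RefSeq promoters of build GRCm38.p6 were matched by symbol for 17 of the 35 genes, at 24 transcription starts, and the 250 bases before the start are printed 5′ to 3′ on the strand of the gene. Capitals mark GGAA, or TTCC for the same core on the other strand. The windows are chr2:119325534-119325783 on the plus strand for Dll4, chr16:18776597-18776846 on the plus strand for Cldn5, and chr5:75978456-75978705 on the minus strand for Kdr.
Dll4: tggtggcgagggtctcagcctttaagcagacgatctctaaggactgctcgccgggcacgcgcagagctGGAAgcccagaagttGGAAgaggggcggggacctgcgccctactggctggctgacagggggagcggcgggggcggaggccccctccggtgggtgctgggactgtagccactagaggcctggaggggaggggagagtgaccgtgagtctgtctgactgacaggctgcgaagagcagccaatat
Cldn5: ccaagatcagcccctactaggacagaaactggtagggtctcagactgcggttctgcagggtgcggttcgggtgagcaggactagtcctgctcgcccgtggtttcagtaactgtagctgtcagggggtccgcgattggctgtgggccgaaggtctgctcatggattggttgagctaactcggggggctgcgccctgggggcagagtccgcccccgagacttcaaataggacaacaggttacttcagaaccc
Kdr: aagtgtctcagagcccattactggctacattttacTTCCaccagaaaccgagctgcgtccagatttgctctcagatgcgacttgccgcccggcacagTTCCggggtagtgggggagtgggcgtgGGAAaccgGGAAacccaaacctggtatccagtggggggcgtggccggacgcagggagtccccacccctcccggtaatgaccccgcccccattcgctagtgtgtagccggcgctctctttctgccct
The core occurred 2 times before Dll4, 4 times before Kdr and 0 times before Cldn5. It is common, since 93.4% of 32851 windows of this length held it, and 22 of the 24 windows of the endothelial genes did. The longer TGGGAA, which reads TTCCCA on the other strand, the core bound by the Notch effector RBPJ, contains GGAA; it was in 1 of the 3 windows, that of Kdr, and in 21.6% of all windows. The SOX core ACAAT (or ATTGT) was in 0 of the 3 windows, in 4 of the 24, and in 27.7% of all windows. These matches describe letters in the windows and were not tested for binding. Egfl7, which was also lower in every Igf2 cKO library than in any control, had more than 1 start. Its windows held the GGAA core 5, 3 and 1 times and are not printed. Sox17, Sox18, S1pr1, Ramp2, Fli1 and Aplnr had no entry.

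Library totals ran from 16184371 to 17905203 counts. Igf2 itself had 39 to 60 counts in control libraries and 33 to 42 in Igf2 cKO libraries, which is -0.31 ± 0.25 on the log2 scale (SE, edgeR adjusted p = 0.751), from a count that does not separate the floxed exon. Over all 14867 genes tested, 37 were called at an adjusted p under 0.05, 27 higher and 10 lower in Igf2 cKO muscle, which is 0.249% of the genes (0.182% higher and 0.0673% lower). Scaling the libraries to 8 pan-endothelial genes gave 120 calls, 74 higher and 46 lower. The tissue label matched its markers, with the 11 fibre genes (Acta1, Ckm, Myh4 and others) at a summed 113300 to 136900 CPM in control and 92230 to 113600 in Igf2 cKO libraries. All 12 adhesion, junction and surface genes had counts in every library, which shows that they were detected and not which cells they came from.

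Per length, the 35 genes covered a wide range of levels. By the FPKM that the authors deposited (fragments scaled to gene length and library size), Cav1, which encodes the caveolar coat protein, was the highest at 168 ± 17.9 in control and 173 ± 25.6 in Igf2 cKO muscle (SD, n = 3 each). Ly6c1, a surface protein of capillary endothelium, followed at 85.9 ± 12.5 and 117 ± 19.3 FPKM, and Cdh5, the VE-cadherin of endothelial junctions, at 94.8 ± 9.43 and 88.5 ± 19.5 FPKM. Cav1 stood above each of the other 34 genes in every library, while the libraries of Ly6c1 and Cdh5 overlapped. The SOXF factor Sox18 was the most abundant transcription factor of the 5 at a mean of 34.0 FPKM over all libraries, and Sox17, Sox7, Fli1 and Erg lay between 8.71 and 10.9 FPKM, a range narrower than the spread of each over the libraries. The lowest were the lymphatic receptor gene Flt4 at 3.07 and the ligand gene Angpt1 at 3.20 FPKM, whose libraries overlapped too.

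**Figure D1:**
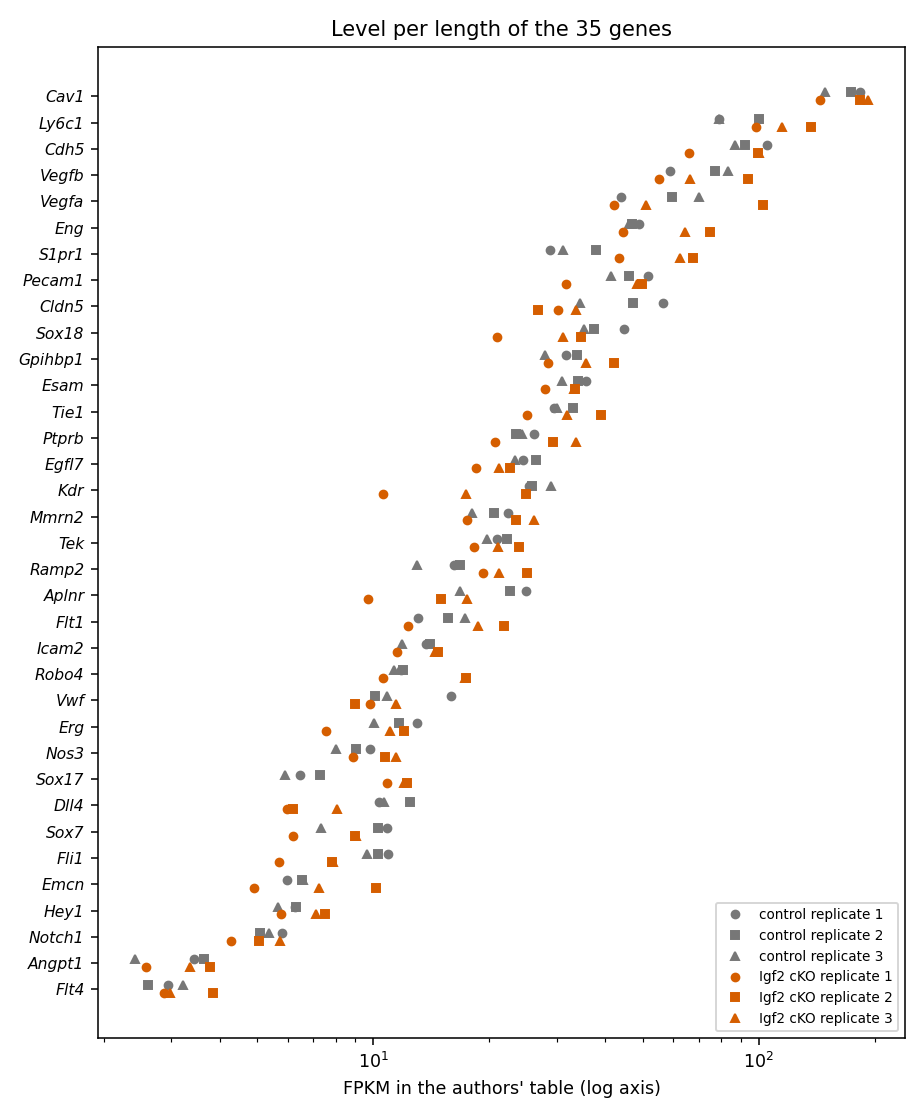
Deposited FPKM of the 35 endothelial genes on a log axis, 1 symbol per library (grey for control, orange for Igf2 cKO, shape by replicate number), ordered by the mean over all 6 libraries. Cav1 is at the top with a mean of 170.6 FPKM and Flt4 at the bottom with 3.07 FPKM.

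Sox17 was the 1 endothelial gene that passed the test. It encodes a SOXF transcription factor of arterial endothelium and lies on chromosome 1 (4490931 to 4497354, minus strand, GRCm38, ENSMUSG00000025902). Its level was 31.1, 34.96 and 28.4 CPM in control replicates 1 to 3 and 52.3, 58.7 and 57.4 CPM in Igf2 cKO replicates 1 to 3. All 3 Igf2 cKO libraries lay above all 3 control libraries, and the gap between the groups was wider than the range within either. The means were 31.5 ± 3.31 and 56.1 ± 3.40 CPM (SD, n = 3 each), a 1.78-fold rise with a log2 fold change of 0.83 ± 0.11 (SE, 95% interval 0.59 to 1.08, adjusted p = 0.0219 by edgeR). The rise rested on 434 to 625 counts in control and 937 to 970 counts in Igf2 cKO libraries. Its adjusted p by edgeR was 0.129, 0.059 and 0.117 without control replicates 1, 2 and 3, and 0.109 without Igf2 cKO replicate 3. It was under 0.05 in 2 of the 6 fits with 1 library left out, the smallest being 0.0293. The log2 fold change stayed between 0.77 and 0.91 with any 1 library left out. With 1 gene of 35 called higher and 0 lower, against 0.182% and 0.0673% of all genes, no statement about the set is made from this count.

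Neither of the other SOXF genes passed the test. Sox18, mutated in a human syndrome of sparse hair, lymphoedema and dilated vessels, was at 73.1, 61.0 and 57.3 CPM in control and 34.3, 56.3 and 50.2 CPM in Igf2 cKO replicates 1, 2 and 3. Its groups did not overlap, with a gap of about 1 CPM between control replicate 3 and Igf2 cKO replicate 2, and the log2 fold change was -0.44 ± 0.18 (SE, adjusted p = 0.462). It was -0.26 without Igf2 cKO replicate 1. Sox7 was at 36.1, 34.2 and 24.3 CPM in control and 20.7, 29.8 and 29.7 CPM in Igf2 cKO libraries, which overlap (log2 fold change -0.24 ± 0.19, adjusted p = 0.738; -0.09 without Igf2 cKO replicate 1). As a ratio of FPKM, Sox17 over Sox18 was 0.144, 0.195 and 0.168 in control and 0.518, 0.354 and 0.388 in Igf2 cKO replicates 1 to 3. Sox17 over Sox7 ran from 0.595 to 0.807 in control and from 1.33 to 1.75 in Igf2 cKO libraries. Both ratios were chosen after their values were seen and have no test, since 3 against 3 libraries cannot give an exact permutation p below 0.1.

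The ETS factors had values below 0 or near it. Fli1, an ETS factor of endothelium and blood cells on chromosome 9, was at 38.3, 36.3 and 33.7 CPM in control and 20.03, 27.5 and 27.4 CPM in Igf2 cKO replicates 1 to 3. All Igf2 cKO libraries were lower than all controls, with replicate 1 the lowest. The log2 fold change was -0.53 ± 0.13 (SE, adjusted p = 0.221), short of the threshold. Erg, an ETS factor that maintains endothelial identity, was at 35.1 to 45.4 CPM in control and 26.4 to 41.9 CPM in Igf2 cKO libraries, overlapping, with a log2 fold change of -0.19 (adjusted p = 0.793; -0.01 without Igf2 cKO replicate 1).

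At an unadjusted p under 0.05, 11 of the 35 genes qualified, 4 higher and 7 lower, against 9.93% of all genes tested (5.11% higher and 4.82% lower). The higher ones beside Sox17 were S1pr1, Ramp2 and Ly6c1, and the lower ones were Dll4, Fli1, Cldn5, Aplnr, Sox18, Egfl7 and Kdr. The libraries of the groups did not overlap for 3 genes that were higher and 6 that were lower, against 15.5% of all genes (7.83% higher and 7.67% lower). The 35 genes were chosen with earlier results of these data known. Neither count is therefore read as an excess over the share of all genes. The median log2 fold change of the 35 was 0.03, with 20 genes above 0 and 15 below, beside a median of 0.00 over all genes.

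**Figure D2:**
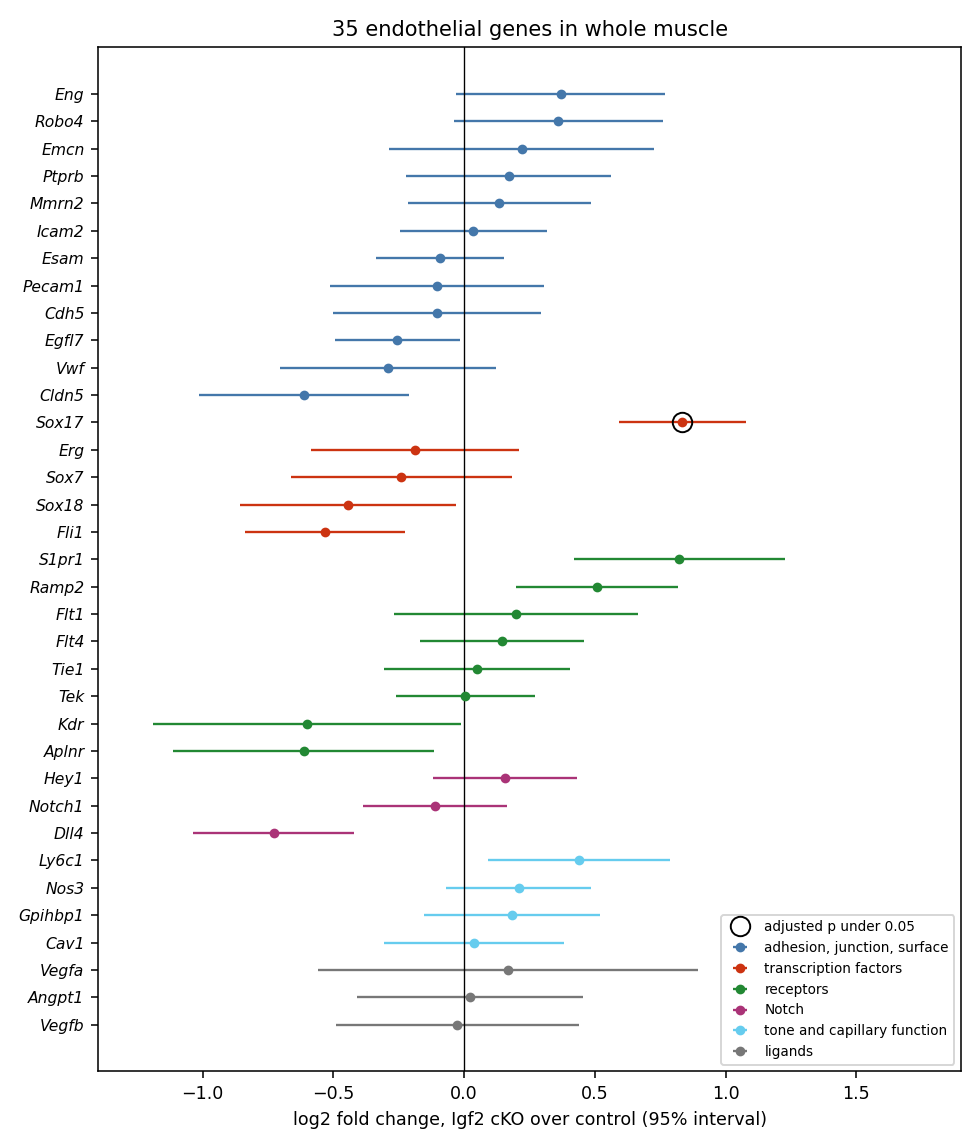
Log2 fold change of each of the 35 genes, Igf2 cKO over control, with its 95% interval from edgeR, coloured and ordered by role. Sox17 at 0.83 is the 1 gene circled as passing the adjusted p, Dll4 at -0.73 is the lowest, and most intervals include 0.

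Among the receptors, S1pr1 and Ramp2 were higher in each Igf2 cKO library than in any control. S1pr1, the receptor for sphingosine 1-phosphate, was at 88.1, 116 and 95.4 CPM in control and 134, 206 and 190.0 CPM in Igf2 cKO replicates 1, 2 and 3. Even the lowest Igf2 cKO library exceeded the highest control, for a log2 difference of 0.82 ± 0.18 (SE, 95% interval 0.42 to 1.23, adjusted p = 0.162). This is as large as that of Sox17 with a wider error. Its adjusted p was 0.0497 without Igf2 cKO replicate 1, 0.00183 in DESeq2 and 0.00172 when no genes were filtered out, and it ran to 0.387 over the alternatives. Ramp2, which pairs with the receptor CALCRL to bind adrenomedullin, was at 53.8, 55.9 and 43.0 CPM in control and 64.0, 83.2 and 69.9 CPM in Igf2 cKO libraries (log2 fold change 0.51 ± 0.14, adjusted p = 0.261). Its groups did not overlap. Calcrl, the partner gene, was at 0.17 on the log2 scale (adjusted p = 0.715).

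Kdr and Aplnr stood lower. Kdr, the main signalling receptor for VEGFA, was at 230.3, 235 and 263 CPM in control and 96.9, 226 and 157 CPM in Igf2 cKO replicates 1, 2 and 3. These 3 libraries spread over more than a doubling, and replicate 2 came within 5 CPM of the lowest control. The log2 fold change was -0.60 ± 0.26 (SE, adjusted p = 0.493), -0.34 without Igf2 cKO replicate 1 and -0.93 without replicate 2. Flt1, which binds VEGFA tightly and signals weakly, was at 178 to 235 CPM in control and 168 to 297.5 CPM in Igf2 cKO libraries (log2 fold change 0.20 ± 0.21, adjusted p = 0.823). The ratio of Flt1 to Kdr in FPKM was 0.517, 0.606 and 0.596 in control and 1.16, 0.882 and 1.07 in Igf2 cKO replicates 1 to 3, without overlap; this ratio too was chosen after its values were seen and was not tested. Aplnr, the apelin receptor of veins and sprouting endothelium, was at 92.7, 84.6 and 62.5 CPM in control and 36.2, 55.7 and 64.9 CPM in Igf2 cKO libraries, with overlap at the highest Igf2 cKO library (log2 fold change -0.61 ± 0.22, adjusted p = 0.394). It was -0.41 without Igf2 cKO replicate 1.

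The remaining receptors differed little. Tek, the angiopoietin receptor, was at 0.00 on the log2 scale (95% interval -0.26 to 0.27), with 93.5 to 106 CPM in control and 87.1 to 113 CPM in Igf2 cKO libraries. Its partner Tie1 was at 0.05 (-0.31 to 0.40), and Flt4, the VEGFC receptor of lymphatic vessels, at 0.14 (-0.17 to 0.46). The intervals of Tek, Tie1 and Flt4 all include 0 and together span -0.31 to 0.46 on the log2 scale.

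In the Notch group, Dll4 was the gene with the second smallest p of the 35. Dll4, on chromosome 2 (119325784 to 119335962, plus strand), was at 40.2, 48.4 and 41.3 CPM in control and 23.3, 24.0 and 31.1 CPM in Igf2 cKO replicates 1 to 3. Each Igf2 cKO library was below each control. The means were 43.3 ± 4.44 and 26.1 ± 4.32 CPM (SD, n = 3 each) a log2 difference of -0.73 ± 0.14 (SE, 95% interval -1.04 to -0.42, adjusted p = 0.109 by edgeR). It missed the threshold in each fit with a library left out (adjusted p from 0.0794 to 0.343), while DESeq2 gave 0.00185 and edgeR without the filter 0.0015. Notch1, its receptor, was at 73.0 to 83.4 and 61.5 to 81.8 CPM (log2 fold change -0.11 ± 0.12, adjusted p = 0.833). Hey1, a transcriptional repressor induced by Notch, was at 18.6 to 20.8 and 19.0 to 24.7 CPM (0.16 ± 0.12, adjusted p = 0.743). For both, the groups overlapped. A noncoding gene on the opposite strand overlaps Dll4 with a mean of 16.5 counts, and one overlaps Sox17 with 3.83 counts, and without a stated strand setting such reads cannot be told apart.

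**Figure D3:**
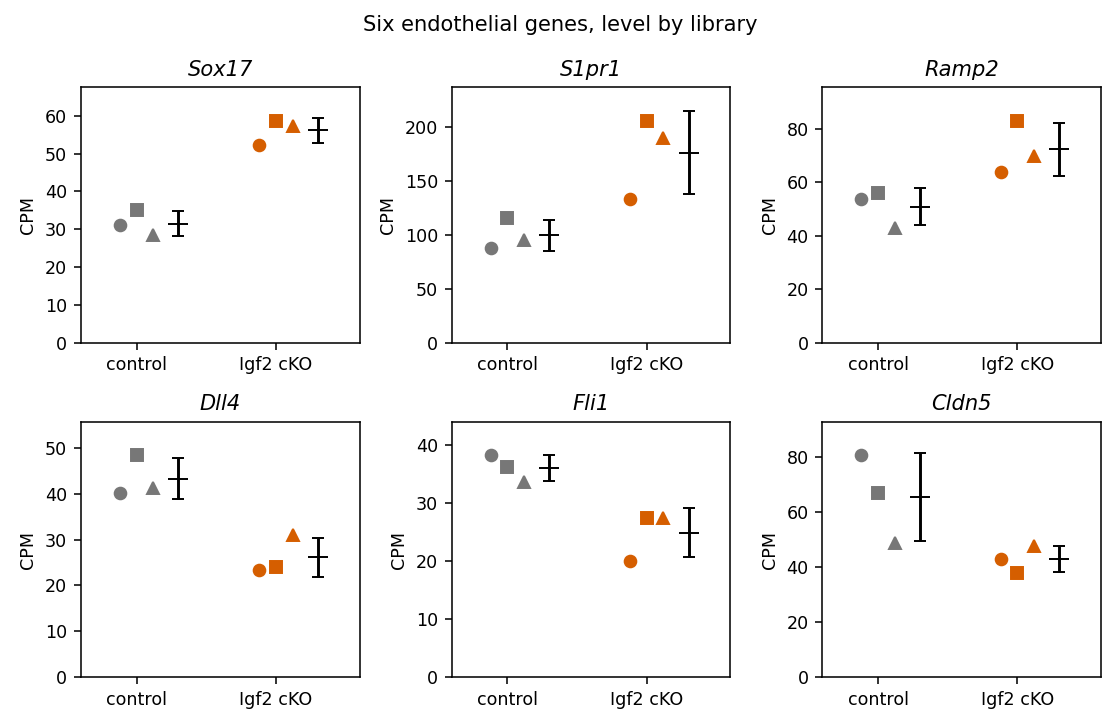
CPM of the 6 endothelial genes with the smallest p, 1 symbol per library with shape by replicate number, and mean ± SD beside each group of 3. Sox17, S1pr1 and Ramp2 in the top row are higher and Dll4, Fli1 and Cldn5 in the bottom row lower in every Igf2 cKO library, and Sox17 alone passed the adjusted p.

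Adhesion, junction and surface genes were centred on 0. Of the 12, 0 were called by edgeR, 2 had an unadjusted p under 0.05, and the median log2 fold change was -0.03. Pecam1 (CD31), an adhesion molecule used to count endothelium, was at 324, 288.5 and 260 CPM in control and 199, 312 and 301 CPM in Igf2 cKO replicates 1 to 3. Igf2 cKO replicate 1 was below every control and the other Igf2 cKO libraries were within or near the control range, for a log2 fold change of -0.10 ± 0.18 (95% interval -0.51 to 0.31, adjusted p = 0.907). Cdh5 had the same arrangement, at 445.5, 391 and 367 CPM in control and 279.9, 420.0 and 421 CPM in Igf2 cKO libraries (-0.10 ± 0.17, 95% interval -0.50 to 0.29, adjusted p = 0.903). Without Igf2 cKO replicate 1 the values became 0.08 for Pecam1 and 0.07 for Cdh5.

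Cldn5 was the junction gene furthest from 0. It encodes claudin 5, the tight junction protein of endothelium, and was at 80.7, 67.1 and 49.0 CPM in control and 43.1, 38.1 and 47.7 CPM in Igf2 cKO replicates 1, 2 and 3. These 3 libraries lay just under control replicate 3, and the log2 fold change was -0.61 ± 0.18 (SE, adjusted p = 0.281). Egfl7, a secreted endothelial matrix protein whose gene hosts miR-126, was at 88.2, 95.4 and 84.2 CPM in control and 66.99, 81.3 and 76.1 CPM in Igf2 cKO libraries (-0.26 ± 0.10, adjusted p = 0.467). The groups of Egfl7 did not overlap. The gene Agpat2 overlaps it on the opposite strand with a mean of 224 counts beside its 1400.

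Eng and Robo4 were above 0 without passing. Eng, the co-receptor endoglin for BMP9, was tight in controls at 188 to 199 CPM and ran from 182 to 304 CPM in Igf2 cKO libraries (log2 fold change 0.37 ± 0.18, adjusted p = 0.54). Robo4, an endothelial roundabout receptor, was at 60.6 to 64.0 CPM in control and 56.7, 92.7 and 91.6 CPM in Igf2 cKO replicates 1 to 3 (0.36 ± 0.18, adjusted p = 0.551). The gene Fpgs overlaps Eng on the opposite strand with a mean of 247 counts beside its 3760. In both Eng and Robo4, Igf2 cKO replicate 1 lay below every control and the other 2 libraries above; without it the log2 fold changes were 0.55 (adjusted p = 0.2) and 0.56 (adjusted p = 0.0938). Without Igf2 cKO replicate 2 they were 0.20 for Eng and 0.245 for Robo4 (adjusted p = 0.7 and 0.685). Emcn, Ptprb, Mmrn2, Icam2 and Esam, which encode endomucin, the phosphatase VE-PTP, multimerin 2, an adhesion molecule and a junction protein, lay between -0.09 and 0.22. Vwf, the clotting factor stored in endothelium, was at -0.29 ± 0.18 with control replicate 1 at 258 CPM and the other 5 libraries between 145 and 184 CPM. It was -0.06 without that control library.

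The 4 genes of vascular tone and capillary function were all above 0, with a median of 0.20, and 0 were called. Ly6c1 was at 133, 169 and 133 CPM in control and 166, 230.4 and 192 CPM in Igf2 cKO replicates 1 to 3, so control replicate 2 overlapped with the lowest Igf2 cKO library (log2 fold change 0.44 ± 0.15, adjusted p = 0.383). Its close paralogue Ly6c2 may share reads with it. Nos3, the endothelial nitric oxide synthase, was at 0.21 (95% interval -0.07 to 0.49). Gpihbp1, which holds lipoprotein lipase on the capillary wall, was at 0.18 (-0.16 to 0.52). Cav1 was at 635, 601 and 514 CPM in control and 501, 633 and 663 CPM in Igf2 cKO replicates 1, 2 and 3, with overlap and a log2 fold change of 0.04 (-0.31 to 0.38).

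For each of the ligands the libraries of the groups overlapped. Vegfa was at 189.5, 257 and 302 CPM in control and 182, 441 and 219 CPM in Igf2 cKO replicates 1 to 3. Igf2 cKO replicate 2 was the highest of all 6 and Igf2 cKO replicate 1 the lowest, so the groups overlapped fully (log2 fold change 0.17 ± 0.32, 95% interval -0.56 to 0.90, adjusted p = 0.916). Without Igf2 cKO replicate 2 it was -0.32. In that library the oxidative fibre genes were also the highest of the 6, with Myh2 at 2921 against 922 to 1626 CPM elsewhere, Mb (myoglobin) at 2159 against 597 to 1166 CPM, and Ppargc1a, a driver of oxidative metabolism, at 79.4 against 19.9 to 40.8 CPM. The part of fibre type in the Vegfa values was not tested. Vegfb, which supports fatty acid handling in muscle, was at 95, 125 and 134 CPM in control and 89.4, 151 and 107 CPM in Igf2 cKO libraries (-0.03 ± 0.20, adjusted p = 0.981). Angpt1 was at 18.0, 19.1 and 12.6 CPM in control and 13.6, 19.7 and 17.4 CPM in Igf2 cKO libraries (0.02 ± 0.19, adjusted p = 0.983).

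Igf2 cKO replicate 1 was low in most endothelial genes, and not in these alone. Myh2, Mb and Myh1 were also lowest of the 6 there, at 922, 597 and 1855 CPM, while the Schwann cell genes had their highest sum there, at 1184 CPM. This library was the lowest of the 3 Igf2 cKO libraries in 33 of the 35 genes. It was the lowest of all 6 in 24, while 18.1% of all genes tested had their lowest value of the 6 there. The exceptions within the Igf2 cKO group, Cldn5 and Vwf, were lowest in replicate 2. Among controls replicate 3 was the lowest in 23 genes. For the lowest within a group, the share over all genes was not computed. The geometric mean CPM of 8 pan-endothelial genes (Pecam1, Cdh5, Tie1, Esam, Erg, Robo4, Mmrn2 and Ptprb) was 145, 137 and 126 in control and 106, 156 and 154 in Igf2 cKO replicates 1 to 3, so endothelial RNA was not ordered by genotype.

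**Figure D4:**
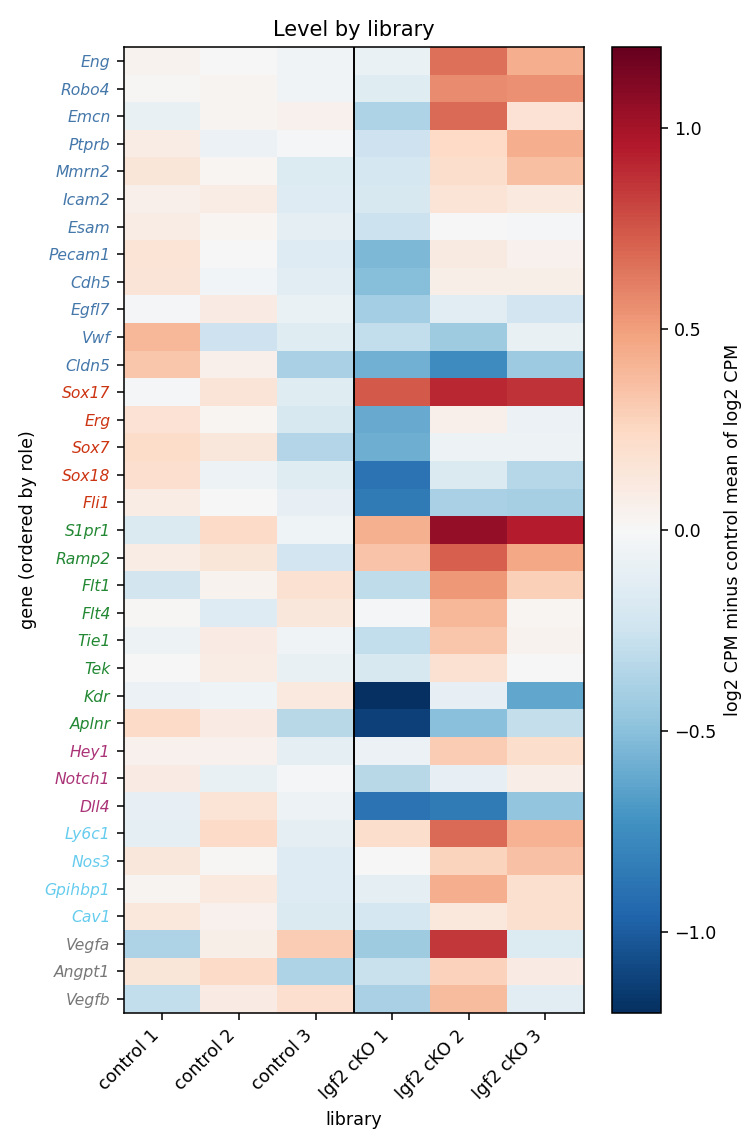
Log2 CPM of the 35 genes in each library minus the mean of the control libraries, with genes ordered and coloured by role. The column of Igf2 cKO replicate 1 is blue for most genes, as the lowest of its group in 33 of 35, while Sox17 and S1pr1 are red and Dll4 is blue in all 3 Igf2 cKO columns.

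Relative to these 8 genes the spread was smaller in Igf2 cKO libraries and not in controls. Over the 27 genes outside the reference, the median coefficient of variation in Igf2 cKO libraries was 16.5% in CPM and 11.2% in CPM divided by the reference, and in controls 10.5% and 11.8%. On this relative scale the groups of 6 of the 27 genes were apart and higher (Sox17, S1pr1, Eng, Ramp2, Nos3 and Ly6c1) and of 5 apart and lower (Sox18, Fli1, Kdr, Aplnr and Dll4), against 7.08% of all genes tested (3.47% higher and 3.61% lower). Over all genes the share in CPM was 15.5%, so dividing by an endothelial reference itself lowered this background. The counts are therefore not read as an excess over it. Fli1 was at 0.264, 0.265 and 0.268 of the reference in control and 0.188, 0.176 and 0.179 in Igf2 cKO replicates 1, 2 and 3, with a gap of many times the spread within a group. S1pr1 was at 0.608, 0.849 and 0.758 and then 1.26, 1.33 and 1.24 of the reference. Sox18 was at 0.504, 0.446 and 0.455 and then 0.322, 0.361 and 0.327, and Aplnr at 0.639, 0.619 and 0.497 and then 0.340, 0.358 and 0.423. Eng, which overlapped in CPM, was at 1.37, 1.40 and 1.49 of the reference in control and 1.71, 1.95 and 1.70 in Igf2 cKO libraries.

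**Figure D5:**
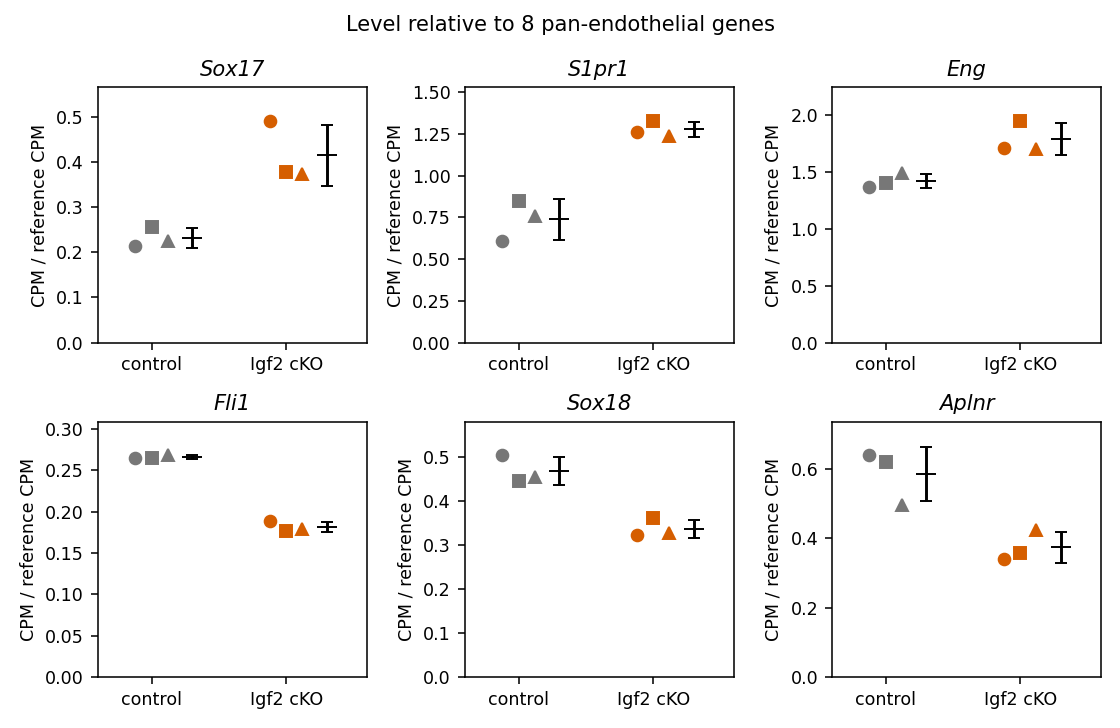
CPM divided by the geometric mean CPM of the 8 pan-endothelial genes in the same library, 1 symbol per library, with mean ± SD beside each group of 3. Sox17, S1pr1 and Eng are higher and Fli1, Sox18 and Aplnr lower in every Igf2 cKO library, with Fli1 at 0.264 to 0.268 in control and 0.176 to 0.188 in Igf2 cKO. No gene shown was called in the edgeR fit scaled to the same 8 genes.

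The edgeR fit with libraries scaled to the 8 genes called 0 of the 35. Those 8 are among the 35, and the scaling itself centres them near 0, so the result bears on the other 27. Sox17 was at 0.84 ± 0.25 in this fit on the log2 scale (SE, adjusted p = 0.0732), Dll4 at -0.74 ± 0.24 (adjusted p = 0.193) and S1pr1 at 0.79 ± 0.26 (adjusted p = 0.203). In the same fit Fli1 was at -0.55 ± 0.24 (adjusted p = 0.683) and Aplnr at -0.65 ± 0.25 (adjusted p = 0.415). Sox18 was at -0.48 ± 0.25 (adjusted p = 0.991) and Eng at 0.33 ± 0.27 (unadjusted p = 0.22). For these genes the sizes were close to those in CPM and the errors larger. Over the 35 genes the errors of this fit differed little, from 0.2417 for Sox7 to 0.286 for Cav1. They therefore do not follow the spread of each gene relative to the reference, which was small for Fli1. At an unadjusted p under 0.05 this fit had 770 genes in all, against 1477 before.

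In the authors' deposited table of single libraries compared by replicate number, 0 of the 35 genes had an adjusted p under 0.05 in any of the 3 comparisons, against 1.5% of 14866 tested genes with a fold change in all 3. The authors' deposited table gave Sox17 log2 fold changes of 0.75, 0.75 and 1.02, S1pr1 of 0.60, 0.83 and 1.00, and Dll4 of -0.78, -1.01 and -0.41. In the same deposited table, the genes higher in all 3 comparisons numbered 4 of the 35 and those lower in all 3 numbered 6, against 16.7% and 15.6% of those 14866 genes. Those values come from the same 6 libraries and are no separate test.

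Further endothelial genes were taken from lists chosen with earlier results of these data known. Over all genes 9.93% had an unadjusted p under 0.05. Counts in these lists, and in those of vessel types, are not read as an excess over that share. Of 24 further endothelial-enriched genes, 0 were called by edgeR, 4 higher and 3 lower had an unadjusted p under 0.05, and the median was -0.07. The 2 with the smallest p were Rgcc, a cell cycle regulator of capillaries, at 43.3 to 59.3 CPM in control and 73.9 to 103 CPM in Igf2 cKO libraries (log2 fold change 0.70, adjusted p = 0.177), and Thbd, thrombomodulin, at 51.9 to 69.1 and 85.7 to 146 CPM (0.86, adjusted p = 0.182). Of 18 further endothelial transcription factors 0 were called, and 2 higher and 3 lower had an unadjusted p under 0.05, led by Ets2 at -0.57 (adjusted p = 0.188) and Meox2 at -0.43 (adjusted p = 0.244). The flow-induced factors Klf2 and Klf4, named after their values were seen, were at 0.62 (adjusted p = 0.388) and 0.55 (adjusted p = 0.353). Of 14 further VEGF, angiopoietin, apelin and semaphorin genes 0 were called, with Pgf, placental growth factor, at 0.86 (adjusted p = 0.118) and Sema3g at 0.39 (adjusted p = 0.279). Among 14 further Notch genes 0 were called, with the ligand Jag2 at 0.40 (adjusted p = 0.239) and the modifier Lfng at 0.63 (adjusted p = 0.334).

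Vessel types were covered by smaller lists, in which edgeR called 0 genes. Of 9 arterial genes 2 had an unadjusted p under 0.05, the gap junction gene Gja5 at 0.58 (adjusted p = 0.201) and Sema3g, and the median was -0.07, with Efnb2 and Gja4 at -0.10 and -0.07. Of 6 venous genes tested 1 did, the selectin gene Selp at -1.07 (adjusted p = 0.489), and Ephb4 was at 0.27. Of 6 lymphatic genes 2 did, Lyve1 at 0.55 (adjusted p = 0.46) and Ccl21a, while Prox1 was at -0.35. Of 9 tested Wnt pathway genes that act with SOXF factors 1 did, the receptor gene Fzd4 at -0.56 (adjusted p = 0.352), and Ctnnb1 was at 0.16. In the list of 15 oxygen sensing genes and targets in muscle 1 was called by edgeR, Ddit4 (2.95 ± 0.11, adjusted p = 1.62e-05). Ddit4 is also a stress and glucocorticoid target. The list, which mixes sensors with targets, had a median of 0.11, with Hif1a at -0.07.

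Markers of other cells are given because whole muscle holds them all. Red cell genes had a summed level of 466 to 639 CPM in control and 327 to 376 CPM in Igf2 cKO libraries. Of the 7 tested 7 were below 0, and 5 were lower at an unadjusted p under 0.05, against 4.82% of all genes. Hbb-bs was at -0.65 (adjusted p = 0.194 by edgeR) and Hba-a1 at -0.55 (adjusted p = 0.201). Pericyte and smooth muscle genes summed to 4389 to 4940 and 4740 to 5014 CPM, with Acta2 at 0.80 (adjusted p = 0.0956), Cnn1 at 1.09 (adjusted p = 0.301) and a list median of 0.01. Des, which fibres also express, was the largest part of these sums, at 2188 to 2846 and 2420 to 2921 CPM. The sums therefore do not measure pericytes and smooth muscle alone. Macrophage genes summed to 367 to 731 and 431 to 609 CPM (10 of 11 below 0, Itgam at -0.60 and Ptprc at -0.44), and fibroblast genes to 6821 to 13830 and 8518 to 12890 CPM (7 of 9 below 0, Pi16 at -0.49 and Dpt at -0.29). Adipocyte genes summed to 1345 to 1726 and 1159 to 2378 CPM (9 of 9 above 0, Lep at 1.66 and Cidec at 0.95), and Schwann cell genes to 272.5 to 716 and 302 to 1184 CPM (9 of 9 above 0, Egr2 at 0.84 and Mag at 0.64). Satellite cell genes summed to 190 to 209 and 240 to 261 CPM, without overlap, and had 6 of 7 above 0 (Sdc4 at 0.63 and Chodl at 0.42). Itga7 was the largest part of that sum, at 99.2 to 107 and 121 to 135 CPM (log2 fold change 0.28). Pax7 was at 0.09, Calcr at 0.11, Vcam1 at 0.14 and Myf5 at -0.59. Fibre genes had 8 of 11 below 0 (Myh4 at -0.54 and Myh1 at 0.34). In these lists edgeR called 0 genes, and no defining marker was at 0 in all libraries. Over all genes tested, 7544 were above 0 and 7317 below. Markers of 1 cell type are not independent of each other, so the counts by direction are not read as separate results. The part of these cells in the endothelial values was not tested.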

How the data were processed

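RNA of muscle from 3 control and 3 Igf2 cKO mice was sequenced on an Illumina NovaSeq instrument by a commercial service, per the labels' protocols. The series text gives 3 mice a group. The aligner, counter, strand setting and build were not given in the sources used. For each gene the authors deposited a read count and an FPKM for every library, per the file headers. The same deposited table has log2 fold changes and p-values of 3 comparisons, each of 1 library with 1 other. Of its gene identifiers, 54409 occur in GENCODE M21, and 98.3% of these have the same start and end there, the 35 genes included, so coordinates are GRCm38. A further 6 columns hold per-library values made for those comparisons, and they were not used.

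For the tests, edgeR 4.0.16 (R 4.3.3) fitted a quasi-likelihood model to the counts (F test, genotype as the single term, TMM factors, filterByExpr, Benjamini-Hochberg adjustment over 14867 genes, called at an adjusted p under 0.05). CPM uses TMM library sizes, and SE comes from the F statistic. Alternatives were other size factors and filters, DESeq2 1.42.0, limma-voom (limma 3.58.1), the replicate number as a block, other thresholds, scaling to 8 pan-endothelial genes, and leaving out each library. The members and lists were chosen with earlier results of these data known. All 35 genes are accounted for, with values in every library for those called or at an unadjusted p under 0.05, the 3 with the highest FPKM, the SOX factors and the ligands. Of each other list the called genes are named, or the 2 with the smallest p where none was called. Calcrl, Klf2, Klf4, Efnb2, Gja4, Prox1, Hif1a, Mb, Myh2 and Ppargc1a, and the FPKM ratios, were added after their values were seen. So were Des, Itga7, Pax7, Calcr, Vcam1 and Myf5. Upstream sequences are from RefSeq. On simulated counts for the 14867 genes the fit called 14.9% of genes changed 1.5-fold, 59.7% of those changed 2-fold and 86.4% of those changed 4-fold.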

Additional observations from a re-analysis of the deposited data

How the results depend on the processing

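The count of calls over all genes was 282 with no filter on low counts, 220 with DESeq2, 62 at an adjusted p under 0.1, 235 by the submitters' own cut-off (more than 1 on the log2 scale in size with an unadjusted p under 0.05), 120 with libraries scaled to 8 pan-endothelial genes, and 8 to 68 with 1 library left out. Of the 35 endothelial genes, 5 were called with no filter (Sox17, S1pr1, Dll4, Fli1 and Cldn5) and 3 with DESeq2 (Sox17, S1pr1 and Dll4). The submitters' cut-off called 0 of them, and 0 to 2 were called with 1 library left out. The endothelial scaling, which is set by 8 of the 35, called 0. The cause of these differences was not tested. Over the other size factors, the CPM filter and limma-voom Sox17 was the 1 call, and over the alternatives that refit all 6 libraries its adjusted p ran from 4.56e-07 to 0.0732. The median of the 35 genes moved less than the spread between libraries and ran from -0.102 to 0.152 with 1 library left out.

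With the replicate number as a block edgeR called 35 genes, 1 of them among the 35 endothelial genes, and changed none of their calls. Same-numbered libraries deviated together with correlations of 0.163, 0.058 and -0.043, so the numbers were not taken to pair the samples. Not every library correlated best with its own number.

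Directions of genes near 0 turned in some settings. Tek was at -0.013 with upper quartile factors, -0.002 with the replicate block and -0.006 with the endothelial scaling. With 1 library left out the log2 fold change ran from -0.217 to 0.077 for Pecam1, -0.198 to 0.068 for Cdh5, -0.074 to 0.445 for Emcn, -0.034 to 0.138 for Icam2, -0.095 to 0.094 for Tek, -0.120 to 0.193 for Tie1, -0.043 to 0.152 for Cav1, -0.316 to 0.403 for Vegfa, -0.268 to 0.129 for Vegfb and -0.134 to 0.161 for Angpt1. On simulated counts 14.9% of genes changed 1.5-fold were called, and smaller changes were not simulated.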
